A study of Mus musculus with 7 samples.

Results

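The mitochondrial respiratory chain genes examined here were all genes whose symbol in the deposited annotation begins with Nduf followed by a, b, c, s or v, with Uqcr, with Cox and a digit of the range 4 to 8, or with Atp5, and the genes Sdha, Sdhb, Sdhc and Sdhd. Every region of the deposited table assigned to such a gene and lying within 100 kb of its transcription start site (TSS) was taken, which gave 207 of 93611 regions (0.221%), assigned to 78 genes on 19 chromosomes. The choice used names and distances only, no measured value. The farthest region kept lay 99226 bp from the TSS of Cox6c, and the nearest one left out lay 115883 bp from the TSS of Ndufs4. Their WT RelA signals were 3.85 and 5.57 RPKM.

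Binding of RelA and RelB, transcription factors of the NF-kB family, was mapped by chromatin immunoprecipitation and sequencing (ChIP-seq). The cells were mouse dendritic cells, which take up and present antigen, cultured from bone marrow with GM-CSF and IL-4 (BMDCs). All cells were of the C57BL/6 strain and were either RelBko (cells without a functional Relb gene; how the gene was inactivated is not described in the labels) or wild type (WT). The libraries were RelBko RelA and WT RelA at 1 h of lipopolysaccharide (LPS, 10 ng/mL), RelBko RelB and WT RelB at 1 h of LPS, RelBko RelB and WT RelB without LPS (0 h), and input DNA of WT cells, which received no antibody. Each group held 1 library, so no difference below has a replicate check and none was tested.

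The respiratory chain passes electrons through complexes I to IV of the inner mitochondrial membrane and pumps protons, and ATP synthase, often counted as complex V, uses the proton gradient to make ATP. Most of its subunits are encoded in the nucleus and transcribed in nearly all cells, from promoters known for sites of NRF1, GABPA (NRF2) and YY1. In LPS-stimulated dendritic cells and macrophages, energy production is known to move from respiration towards glycolysis, and succinate dehydrogenase, complex II, is known for its part in inflammatory signalling.

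The signal unit was RPKM, reads scaled to the length of the region and to the total reads of the library, as deposited by the authors. Totals behind the RPKM ran from 13188833 reads (input) to 35064429 reads (WT RelB at 0 h), and a respiratory chain promoter held a median of 57.0 to 112.0 reads in the WT ChIP libraries, 92.5 in RelBko RelA, 13.5 and 22 in RelBko RelB at 1 h and 0 h, and 7.0 in the input. As a scale, the promoter of Nfkbia, the NF-kB inhibitor gene that NF-kB itself induces, had 191 RPKM in RelBko RelA, against 190 RPKM in WT RelA. The share of a library's reads in the regions was 37.2% in RelBko RelA and 37.9% in WT RelA, and for RelB 4.62% in RelBko against 42.4% in WT at 1 h and 7.41% in RelBko against 38.4% in WT at 0 h.

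Of the 207 regions, 58 (28%) were annotated as promoters, against 11% of all regions in the table. They belonged to 56 genes; Atp5g1 and Ndufa13 had 2 each. Complex I (NADH dehydrogenase) had 25 promoter regions, complex II 2, complex III (cytochrome bc1) 5, complex IV (cytochrome c oxidase) 9 and complex V 10. The remaining 7 belonged to genes matched by symbol that encode no subunit of a complex, such as the complex I assembly factors Ndufaf1, Ndufaf2 and Ndufaf3. For 22 of the 78 genes no region of the promoter class was among those analysed. The other 149 regions comprised 69 between genes, 58 in introns, 9 in exons, 6 at transcription ends, 6 in 3′ UTRs and 1 in a non-coding transcript. These were uneven: 59 of the 149 (39.6%) were assigned to Uqcrfs1, Atp5o, Cox7a2l, Cox4i2, Cox6c and Cox7c. Ndufa13 had 6 as well, as many as Cox6c and Cox7c. Of the 149, 12 lay within 1000 bp of the TSS though not annotated as promoters. They included regions of genes without a promoter-class region: Ndufb2 (exon, 104 bp), Ndufb10 (intron, 213 bp), Ndufc2 (exon, 241 bp) and Ndufs4 (intron, 323 bp).

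Promoter sequence was read from RefSeq (build GRCm38.p6), as windows of 250 bases before to 50 bases after the annotated start. For 51 of the 56 genes with a promoter region, 55 windows were found. The 5 below are shown because their regions carry the results that follow: Ndufaf3 and Ndufv3 had the highest RelA signal of the respiratory chain promoters, Sdha was the promoter most in favour of RelA over RelB, Ndufa11 differed most between genotypes in RelA, and Cox8a was the one gene whose window held a 9-base palindromic kappa-B match. All are printed 5′ to 3′ along the gene, with capitals marking matches on either strand to NRF1, GABPA, YY1 and kappa-B motifs. The measured regions lie in the older build mm9, so their exact place relative to the windows was not determined. Some promoter-class regions of other genes lie farther from the TSS than the windows reach.
Ndufaf3 (chr9:108567387-108567686, minus strand): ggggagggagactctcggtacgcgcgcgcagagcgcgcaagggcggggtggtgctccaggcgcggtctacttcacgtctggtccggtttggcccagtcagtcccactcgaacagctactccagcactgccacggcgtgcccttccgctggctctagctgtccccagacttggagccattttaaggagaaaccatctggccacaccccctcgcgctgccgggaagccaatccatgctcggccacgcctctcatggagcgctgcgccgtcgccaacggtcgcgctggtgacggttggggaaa
Ndufv3 (chr17:31519865-31520164, plus strand): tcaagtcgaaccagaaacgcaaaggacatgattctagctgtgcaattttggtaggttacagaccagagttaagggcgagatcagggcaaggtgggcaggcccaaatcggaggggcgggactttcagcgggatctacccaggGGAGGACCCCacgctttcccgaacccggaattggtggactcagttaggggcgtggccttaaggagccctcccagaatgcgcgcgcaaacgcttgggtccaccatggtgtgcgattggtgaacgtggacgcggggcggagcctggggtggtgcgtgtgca
Sdha (chr13:74350191-74350490, minus strand): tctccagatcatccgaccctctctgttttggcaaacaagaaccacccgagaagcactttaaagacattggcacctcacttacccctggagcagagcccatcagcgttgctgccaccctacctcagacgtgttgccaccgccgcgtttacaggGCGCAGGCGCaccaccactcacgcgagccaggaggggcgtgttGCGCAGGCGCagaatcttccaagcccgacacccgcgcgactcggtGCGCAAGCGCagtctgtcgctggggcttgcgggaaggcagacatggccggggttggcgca
Ndufa11 (chr17:56717512-56717811, plus strand): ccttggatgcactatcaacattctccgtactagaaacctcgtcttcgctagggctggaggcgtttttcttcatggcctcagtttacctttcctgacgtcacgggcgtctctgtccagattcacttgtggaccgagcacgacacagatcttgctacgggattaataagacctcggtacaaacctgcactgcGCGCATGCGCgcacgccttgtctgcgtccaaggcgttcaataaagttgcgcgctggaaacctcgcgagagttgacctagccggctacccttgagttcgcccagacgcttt
Cox8a (chr19:7217567-7217866, minus strand): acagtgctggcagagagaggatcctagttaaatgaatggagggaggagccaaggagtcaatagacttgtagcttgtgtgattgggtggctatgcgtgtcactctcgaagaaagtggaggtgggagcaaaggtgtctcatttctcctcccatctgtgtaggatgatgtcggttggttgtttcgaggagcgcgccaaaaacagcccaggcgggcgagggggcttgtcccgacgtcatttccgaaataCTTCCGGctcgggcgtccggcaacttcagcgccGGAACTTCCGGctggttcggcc

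Capitals mark 1 match to the kappa-B consensus in Ndufv3, 3 NRF1 matches in Sdha, 1 NRF1 match in Ndufa11, and in Cox8a both GABPA matches, the second of which overlaps the palindromic kappa-B match. The Ndufaf3 window, which goes with the highest RelA signal of all respiratory chain promoters, held none of these motifs.

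The windows held motifs of mitochondrial gene control more often than those of other genes in the table. The NRF1 motif, GCGC on both sides of any pair of bases, occurred in 17 of 55 windows (30.9%), against 13.0% of the 9647 windows of all genes with a promoter region. The YY1 motif AAGATGGC occurred in 8 windows (14.5%), against 4.07%, and the GABPA motif CCGGAAG in 13 (23.6%), against 17.1%. Sp1's GGGCGG was in 27 windows (49.1%), against 63.5%. The kappa-B consensus stood in 7 windows (12.7%), of Atp5d, Atp5s, Ndufa13, Ndufb6, Ndufv3 and Sdhb, a share close to the 12.3% of all windows, and the palindromic GGAANTTCC in the 1 of Cox8a (1.82%), against 1.36%. All motifs were searched on both strands, and windows of 1 gene overlap in part, so the shares are descriptions without a test. A match is a description of letters, not a shown binding site.

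**Figure D1:**
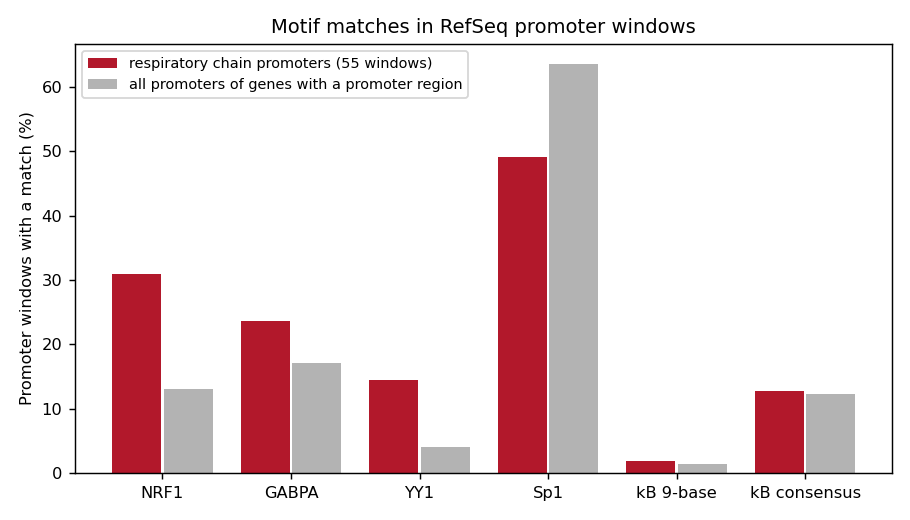
Share of RefSeq promoter windows (percent, vertical axis) with at least 1 match to each motif, for respiratory chain genes and for all genes with a promoter region in the table. NRF1 and YY1 matches stand in 30.9% and 14.5% of the respiratory chain windows, against 13.0% and 4.07% of all windows, while the kappa-B consensus shares are 12.7% and 12.3%.

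The base composition of the windows was near that of all genes with a promoter region. Their median GC content was 59.0%, against 61.3%, and their median ratio of observed to expected CpG was 0.842, against 0.759. A start of another gene on the opposite strand lay within 1000 bp upstream for 16 of 55 windows (29.1%), against 17.0% of all windows. Sdha with Ccdc127 and Ndufa11 with Vmac are examples. A region at such a promoter cannot be assigned to one gene of the pair by position.

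In the RelA and WT RelB libraries, respiratory chain promoters carried signal well above input, but less than the typical promoter of the table. Their median was 9.61 RPKM in RelBko RelA and 8.36 RPKM in WT RelA, against 13.0 and 11.9 RPKM over all 10262 promoters in the same 2 libraries. In WT RelB they had a median of 8.10 RPKM at 1 h and 6.96 RPKM at 0 h, against 10.8 and 9.34 RPKM over all promoters. In RelBko RelB the respiratory chain promoters had 1.49 RPKM at 1 h, near input, and 3.29 at 0 h, against 1.67 and 3.34 over all promoters. In the input the medians were alike, 1.29 RPKM for the respiratory chain and 1.27 RPKM for all. Of the 58 promoters, 16 (27.6%) lay above the median of all promoters in WT RelA and 18 (31.0%) in WT RelB at 1 h.

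Enrichment was taken as at least 2 RPKM and at least 2-fold over input after adding 0.5 RPKM to both. By that rule 58 of 58 respiratory chain promoters were enriched in RelBko RelA (all promoters 95.4%) and 54 in WT RelA (all promoters 95.7%). In RelB, 2 were enriched in RelBko against 55 in WT at 1 h (all promoters 11.7% and 93.3%), and 27 in RelBko against 55 in WT at 0 h (all promoters 52.3% and 90.3%). Enriched shares were near those of promoters in general, and in RelBko RelB at 1 h the share was the lower one, 3.45%. RelBko cells without LPS still passed the rule at 27 promoters with the RelB antibody.

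Promoters of the respiratory chain had a higher median RPKM than the remaining respiratory chain regions in every library, the input included. The ratio of medians, promoters over other regions, was 1.60 in RelBko RelA and 1.49 in WT RelA (9.61 over 6.00 RPKM and 8.36 over 5.61 RPKM). For RelB it was 1.51 in RelBko and 1.43 in WT at 1 h, and 2.01 in RelBko and 1.39 in WT at 0 h. The input, which received no antibody, had a ratio of 1.29. As median fold over input, promoters and other regions had 6.42 and 6.50 in WT RelA, and 7.37 and 6.06 in RelBko RelA. For RelB the folds were 6.03 and 6.03 in WT and 1.12 and 1.08 in RelBko at 1 h. At 0 h they were 5.25 and 5.42 in WT and 2.51 and 1.79 in RelBko. Relative to input, promoters and other regions were thus close in the WT ChIP libraries. Over the whole table the same ratio was larger in each ChIP library, for example 2.73 in RelBko RelA and 2.27 in WT RelA. With only the region of highest mean ChIP signal for each gene and class, a choice that favours the class with more regions per gene, the order was kept in 4 of the 6 ChIP libraries. The ratio was then 1.18 in RelBko RelA and 0.867 in WT RelA. For RelB it was 1.34 in RelBko and 1.09 in WT at 1 h, and 1.61 in RelBko and 0.995 in WT at 0 h. In the input it was 1.10, level with WT RelB at 1 h. With promoters taken instead as the 70 regions within 1000 bp of the TSS, the ratio was 1.86 in RelBko RelA, 1.60 in WT RelA and 1.33 in the input.

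**Figure D2:**
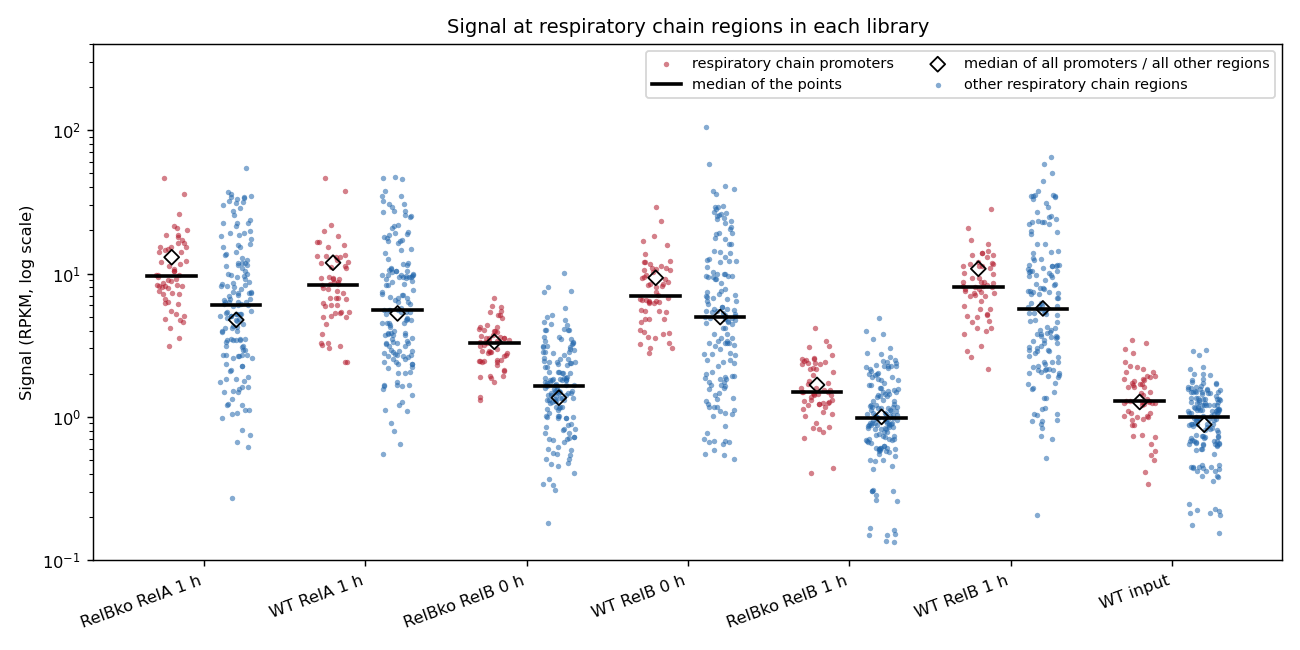
RPKM (log scale) of the 58 respiratory chain promoters (red) and the 149 other respiratory chain regions (blue) in the 7 libraries; black bars are medians of the points, and open diamonds are medians of all promoters or all other regions of the table. Red medians lie below the diamonds in both RelA and both WT RelB libraries, and the highest points of the WT RelB libraries are blue, up to 105 RPKM.

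As a fold, the promoters spread less than the other regions, and the same held over the whole table. The WT RelA quartiles were 5.43 and 12.4 RPKM at respiratory chain promoters and 2.89 and 10.8 at the other regions. Over the table they were 6.76 and 20.1 RPKM at all promoters and 2.64 and 12.1 at all other regions. In WT RelA, promoters spanned 19.2-fold, from 2.41 to 46.1 RPKM, and other regions 84.8-fold, from 0.554 to 47.0 RPKM. In WT RelB at 1 h the spans were 13.3-fold and 314-fold, the latter from a lowest value of 0.208 RPKM. Such spans rest on the extremes of unequal numbers of regions, 58 and 149. At 20 RPKM or more in WT RelA stood 3 promoters, of Cox7a1, Ndufaf3 and Ndufv3, and 19 other regions of 9 genes.

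Complex I receives electrons from NADH. Its strongest promoter was that of Ndufv3 (mm9 chr17:31656756-31657109), a small subunit of the NADH-binding module. It had 35.8 RPKM in RelBko RelA, 37.7 in WT RelA, 2.17 in RelBko RelB and 20.7 in WT RelB at 1 h, 5.49 in RelBko RelB and 23.4 in WT RelB at 0 h, and 1.29 in the input. RelA signal was near equal in both genotypes, RelB signal was far lower in RelBko, and RelA exceeded RelB in WT. Ndufs8, which carries iron-sulphur clusters, had 20.2 RPKM in RelBko RelA and 11.1 in WT RelA. Its RelB signal was 2.17 RPKM in RelBko against 14.3 in WT at 1 h, and 5.90 in RelBko against 12.1 in WT at 0 h. Ndufv2, another subunit with an iron-sulphur cluster, had 18.5 RPKM in RelBko RelA and 13.2 in WT RelA. Both had more RelA signal in RelBko. Ndufs5, a small accessory subunit, had 18.6 RPKM in RelBko RelA and 16.5 in WT RelA. At the low end of complex I were Ndufa3, with 4.20 RPKM in RelBko RelA and 2.43 in WT RelA, and Ndufb4, with 3.13 and 3.03 RPKM in the same 2 libraries.

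Complex II oxidises succinate and takes part in the citric acid cycle as well. Sdha (mm9 chr13:74487345-74487766), its flavin-binding catalytic subunit, had 21.4 RPKM in RelBko RelA and 19.9 in WT RelA. Its RelB signal was 2.55 RPKM in RelBko against 7.75 in WT at 1 h, 2.85 in RelBko against 12.2 in WT at 0 h, and its input 1.80. Sdhb, the iron-sulphur subunit, had 8.92 RPKM in RelBko RelA and 8.74 in WT RelA, with 10.1 in WT RelB at 1 h and 10.8 at 0 h. Sdha thus had the higher RelA signal of the pair in both genotypes, and the lower RelB signal in WT cells at 1 h. The third gene, Sdhd, had no promoter region among those analysed.

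Complex III passes electrons to cytochrome c. Among its promoters Uqcrfs1, the Rieske iron-sulphur protein, had 14.9 RPKM in RelBko RelA and 11.3 in WT RelA, and Uqcrq 9.41 and 11.9. Uqcrb had 8.28 RPKM in RelBko RelA and 7.60 in WT RelA, and the core protein gene Uqcrc1 6.12 and 5.0. The lowest was Uqcr11, with 4.75 RPKM in RelBko RelA and 3.18 in WT RelA.

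Complex IV reduces oxygen. Its strongest promoter was that of Cox7a1 (mm9 chr7:30968902-30969329), the isoform of subunit VIIa known from heart and skeletal muscle, with 25.9 RPKM in RelBko RelA and 21.7 in WT RelA. RelB signal there was 0.839 RPKM in RelBko against 11.3 in WT at 1 h, and 3.61 in RelBko against 15.7 in WT at 0 h. Cox7a2, the more widely expressed isoform, had 8.55 RPKM in RelBko RelA and 6.03 in WT RelA, so the isoform known from muscle had the higher signal. Cox4i1, a core nuclear subunit, had 20.9 RPKM in RelBko RelA and 12.5 in WT RelA, and Cox5a 15.2 and 10.9. Cox6b1 was lowest, with 4.84 RPKM in RelBko RelA and 3.12 in WT RelA.

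In ATP synthase the promoter-class region of Atp5d, the delta subunit, lay 819 bp upstream of the TSS and had 18.0 RPKM in RelBko RelA and 18.4 in WT RelA. Atp5g1, a gene of the membrane ring subunit c, had 17.1 and 13.1 RPKM in these libraries at the TSS and 11.2 and 9.23 RPKM at a second region 508 bp upstream. Atp5j had 16.3 RPKM in RelBko RelA and 15.3 in WT RelA, and Atp5g3, another gene of subunit c, 11.7 and 9.25. The lowest was Atp5k, with 4.56 RPKM in RelBko RelA and 2.41 in WT RelA. Among genes that encode no subunit, Ndufaf3 (mm9 chr9:108469516-108469865), a complex I assembly factor, had the highest RelA signal of all respiratory chain promoters, 46.3 RPKM in RelBko and 46.1 in WT. Its RelB signal was 3.37 RPKM in RelBko against 28.4 in WT at 1 h, and 5.88 in RelBko against 29.2 in WT at 0 h, over an input of 0.650. Cox7a2l, a factor of supercomplex assembly, had 16.4 RPKM in RelBko RelA and 15.9 in WT RelA, Atp5s 15.3 and 13.2, and Ndufaf7 10.5 and 7.99.

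**Figure D3:**
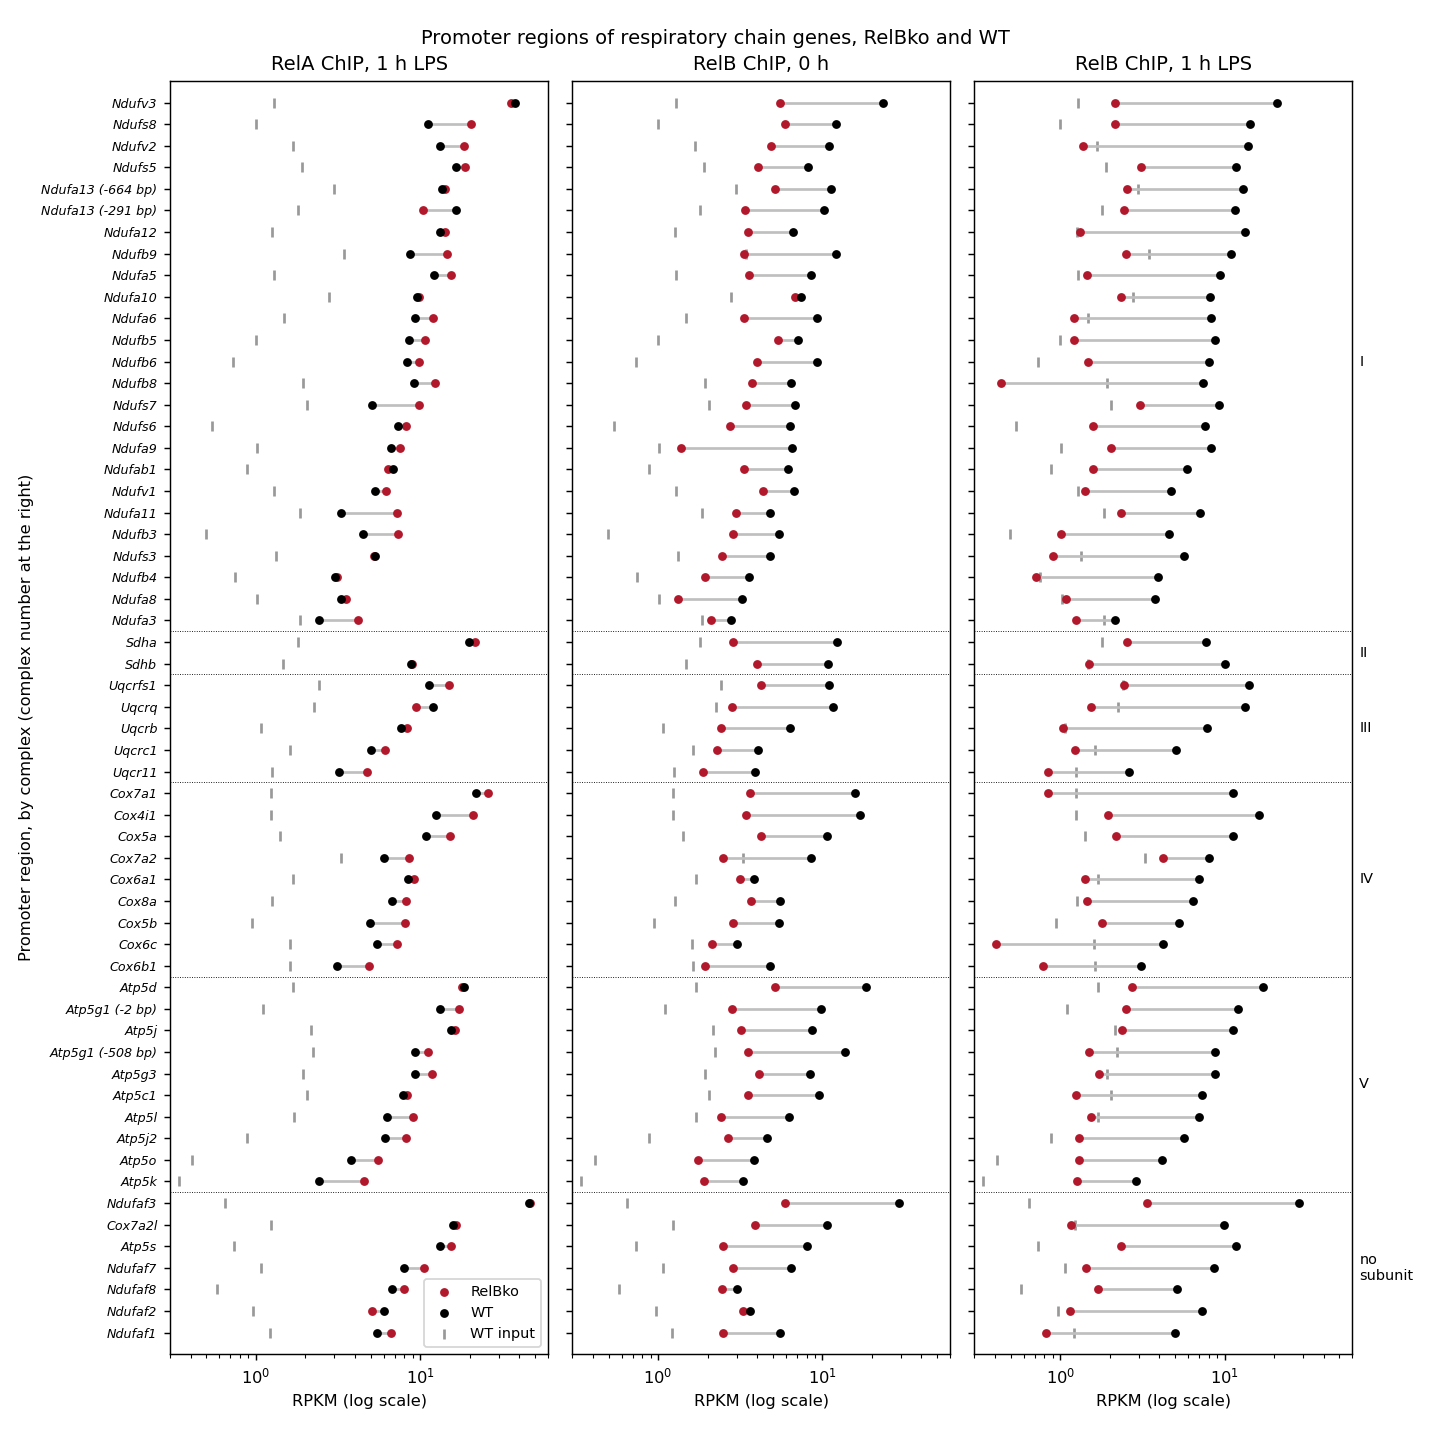
RPKM (log scale) of each of the 58 respiratory chain promoter regions in RelBko (red) and WT (black), with WT input as a grey tick, for RelA at 1 h, RelB at 0 h and RelB at 1 h; genes are grouped by complex and ordered by mean ChIP signal. In the RelA panel most red points lie at or just right of the black ones, and in both RelB panels every red point lies to the left.

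Promoters with a kappa-B consensus in their window had more signal in each ChIP library, over few genes. The 7 regions of the 6 genes with a match had a median of 14.1 RPKM in RelBko RelA and 13.5 RPKM in WT RelA. The 46 regions of the 45 genes without one had 8.76 and 7.04 RPKM. In RelB at 1 h the medians were 2.36 against 1.42 RPKM in RelBko and 11.8 against 7.50 in WT. At 0 h they were 3.99 against 3.17 in RelBko and 10.8 against 6.50 in WT, and in the input 1.47 against 1.27. By distance to the TSS, the Atp5d region, 819 bp upstream, and 1 Ndufa13 region, 664 bp upstream, lie outside the windows that hold the match. For NRF1 the order was the other way. Medians in RelBko RelA and WT RelA were 8.21 and 7.54 RPKM over 16 regions of 16 genes with a match. They were 9.84 and 8.50 RPKM over 37 regions of 35 genes without. These are medians over promoter regions, so a gene with 2 regions counts with both, and they are given without a test.

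The question of the series is how loss of RelB affects RelA binding. At respiratory chain promoters the RelA signal in RelBko cells was slightly above that in WT cells. On the log2 scale of RPKM plus 0.5, used for all ratios below, the median RelBko to WT difference was 0.27, against 0.08 over all promoters, and 51 of 58 (87.9%) were above 0, against 60.6% of all promoters. All 9 complex IV promoters were above 0, with a median of 0.46. The difference lay within counting error for most single genes: the exact (Clopper-Pearson) 95% interval of the read ratio lay wholly above 1 for 10 of 58 (17.2%; all promoters 13.8%) and wholly below 1 for 1 (1.72%; all promoters 7.11%). Cytosolic ribosomal protein promoters had a median of 0.18 over 62 regions and proteasome subunit promoters 0.31 over 20, so the shift was not seen at respiratory chain genes alone.

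With a call at 2-fold or more, 1 of 58 promoters was higher in RelBko RelA (1.72%; all promoters 0.458%) and 0 were lower (all promoters 0.966%). The 1 was Ndufa11 (mm9 chr17:56857180-56857507), a membrane subunit of complex I, with 7.25 RPKM in RelBko and 3.29 in WT. Its log2 ratio was 1.03, and its read ratio of 2.20 had an interval of 1.29 to 3.92, over 57 reads in RelBko and 19 in WT. Next were Ndufs7 at 0.89 and Ndufs8 at 0.83. Uqcrq at -0.32 and Ndufaf2 at -0.22 lay at the other end, and the lowest was the Ndufa13 region 291 bp upstream, at -0.64 with 10.4 RPKM in RelBko and 16.5 in WT. Of 131 other respiratory chain regions compared, 0 were higher (all other regions 1.42%) and 5 lower (3.82%; all other regions 5.50%). The 5 were weak or rested on few reads except an intron region of Ndufb4, which had 4.16 RPKM in RelBko and 10.3 in WT, a read ratio of 0.403 with an interval of 0.257 to 0.621. Setting the median ratio of all compared regions to 1 gave 3 of 189 respiratory chain regions higher and 4 lower, in place of 1 and 5. Of all 80885 regions compared, 1333 were then higher and 3435 lower. With a pseudocount of 1 RPKM the Ndufa11 value was 0.94, under the call. The others, assigned to Cox7c, Cox6c, Ndufb4 and Atp5k, had 2.35 to 3.56 RPKM in WT and at most 1.51 in RelBko.

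RelB signal at 1 h was lower in RelBko at nearly all respiratory chain promoters, as over the whole table. Of 55 compared, 53 (96.4%) were at least 2-fold lower, against 97.8% of all promoters, and 0 were higher (all promoters 0.0209%). The median log2 ratio was -2.06, against -2.43 over all promoters. Of 115 other respiratory chain regions compared, 109 (94.8%; all other regions 95.6%) were lower, with a median of -2.56. Without the enrichment filter, the medians of promoters and of other regions lay close together, at -2.05 and -2.09, and 55 of 58 promoters (94.8%; all promoters 93.6%) and 118 of 149 other regions (79.2%; all other regions 82.7%) were at least 2-fold lower. The lowest were Cox7a1 at -3.13, Ndufb8 at -3.07 and Ndufv3 at -2.99. The 2 promoters compared but not called were Cox7a2, at -0.86 with 4.20 RPKM in RelBko and 8.05 in WT, and Atp5k, at -0.95 with 1.26 RPKM in RelBko and 2.90 in WT. For all 55, these included, the interval of the read ratio lay wholly below 1 (100%; all promoters 98.6%). Cox7a2 also had one of the higher input values, 3.29 RPKM.

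At 0 h the genotypes lay closer. Of 55 promoters compared, 32 (58.2%) were lower in RelBko, against 74.3% of all promoters, and 0 were higher (all promoters 0.140%). The median was -1.09, against -1.38 over all promoters and -1.75 over 102 other respiratory chain regions, of which 86 (84.3%; all other regions 87.8%) were lower. Most compared regions passed the filter through WT: 101 of the other regions were enriched in WT and 31 in RelBko. Without the filter the medians were -1.05 over promoters and -1.40 over other regions. Then 32 of 58 promoters (55.2%; all promoters 68.6%) and 95 of 149 other regions (63.8%; all other regions 70.1%) were lower. Ribosomal and proteasome promoters, compared with the filter, had medians of -1.18 and -1.18, close to the -1.09. Ndufaf3 at -2.22, Cox4i1 at -2.16 and Ndufv3 at -1.99 were lowest. Ndufaf2 at -0.13 and Ndufaf8 at -0.25 lay near 0. Ndufa10, a complex I subunit, was highest at -0.11, with 6.80 RPKM in RelBko and 7.39 in WT over an input of 2.77. Its read ratio of 0.920 had an interval of 0.613 to 1.36, so at this depth no difference was detectable there at 0 h, while at 1 h it had 2.35 RPKM in RelBko and 8.15 in WT.

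Only 1 respiratory chain region, in an intron of Ndufb7, was higher in RelBko RelB at 0 h (0.980%; all other regions 0.558%). It had 10.1 RPKM in RelBko and 1.85 in WT, from 30 and 11 reads over a short stretch, and 0.603 RPKM in RelBko RelB at 1 h. RelA signal at this region was 7.37 RPKM in RelBko and 9.36 in WT.

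These RelB differences between genotypes go with a difference in the share of reads in all regions, and their size depends on the scaling. Setting the median ratio of all compared regions to 1 shifted ratios by 2.47 at 1 h and 1.85 at 0 h and gave promoter medians of 0.40 and 0.76. At 1 h, 28 of 170 respiratory chain regions were then higher and 19 lower, in place of 0 and 162. Of all 76583 regions compared at 1 h, 10470 were higher and 13547 lower. At 0 h, 28 of 157 were higher and 21 lower, in place of 1 and 118. Of all 71649 regions compared at 0 h, 7048 were higher and 10933 lower. That scaling removes any general loss. Relative to it, the RelBko to WT ratio of RelB at respiratory chain promoters was above that of the typical region at both times, and all promoters lay at 0.03 and 0.47. At 1 h the RelBko RelB median of these promoters, 1.49 RPKM, was near their input median of 1.29. Their WT RelB median, 8.10 RPKM, was below the 10.8 of all promoters. The part of these levels in the ratio was not tested. Setting regions enriched in no library to 1 gave -1.32 at 1 h and -0.56 at 0 h.

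In WT cells, RelB signal at respiratory chain promoters after 1 h of LPS was close to that at 0 h. Of 57 compared, 0 were called higher (all promoters 4.26%) and 0 lower (all promoters 0.370%), with a median log2 ratio of 0.14, against 0.17 over all promoters. Ndufa12, a complex I subunit, came nearest, at 0.98 with 13.4 RPKM at 1 h and 6.59 at 0 h and a read ratio interval of 1.66 to 2.51. Ndufaf2 at 0.91 and Cox6a1 at 0.78 followed. The lowest were the upstream region of Atp5g1 and Sdha, both at -0.62; at Sdha the signal was 7.75 RPKM at 1 h and 12.2 at 0 h, with an interval of 0.491 to 0.823. Of 122 other respiratory chain regions, 18 (14.8%; all other regions 11.9%) were higher at 1 h and 0 lower (all other regions 1.86%). They included strong regions of Cox4i1, Cox4i2 and Uqcrfs1 beside weak ones of Cox6c and Cox8c. The highest was a region 31967 bp upstream of Cox7a2l, with 7.25 RPKM at 1 h and 1.84 at 0 h. Setting the median ratio of all compared regions to 1 gave 13 of 179 respiratory chain regions higher and 2 lower, in place of 18 and 0. Of all 80966 regions compared, 6823 were then higher and 2511 lower.

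In RelBko cells the RelB antibody signal was lower at 1 h than at 0 h. Only 27 promoters passed enrichment, 2 of them at 1 h and all 27 at 0 h, so that they were chosen by the 0 h value. Of these, 15 (55.6%; all promoters 50.9%) were at least 2-fold lower at 1 h and 0 higher (all promoters 0.0368%), with a median of -1.09, a count from which nothing is read. Over all 58 without a filter, 24 (41.4%; all promoters 35.1%) were lower and the median was -0.85, against -0.80 over all promoters. Reads were few, a median of 13.5 per promoter at 1 h and 22 at 0 h. The largest difference among compared promoters was at Ndufb5, with 1.21 RPKM at 1 h and 5.40 at 0 h. Setting the median ratio of all compared regions to 1 left 3 of 60 respiratory chain regions higher and 3 lower, in place of 1 and 30. Of all 23402 regions compared, 1249 were then higher and 667 lower. Of 33 other regions compared, of which 7 were enriched at 1 h and 31 at 0 h, 15 (45.5%; all other regions 42.0%) were lower, while without a filter 26 of 149 were (17.4%; all other regions 16.0%). Of the 33, 1, the Cox4i1 region 33945 bp from the TSS, was higher at 1 h (3.03%; all other regions 1.11%), with 4.88 RPKM at 1 h and 2.04 at 0 h from 16 and 6 reads and an interval of the read ratio, 0.889 to 7.46, that includes 1.

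RelA and RelB were compared directly in WT at 1 h, 2 libraries made with different antibodies. At the 56 respiratory chain promoters compared, the median log2 ratio of RelA to RelB was 0.05, against 0.10 over all promoters compared. Over all 58 without the filter, the quartiles were narrow, -0.14 and 0.21, against -0.20 and 0.44 over all promoters. Only Sdha was called, higher in RelA (1.79%; all promoters 7.07%), at 1.31, with 19.9 RPKM in RelA and 7.75 in RelB and a read ratio of 2.57 with an interval of 1.97 to 3.37. Promoters lower in RelA numbered 0 (all promoters 1.11%); Ndufa11 at -1.0 lay just short of the threshold. Cox7a1 at 0.91 and Ndufv3 at 0.85 followed Sdha. Of 132 other regions, 13 (9.85%; all other regions 7.50%) were higher in RelA and 2 (1.52%; all other regions 8.02%) lower. The greatest was in an intron of Uqcr11, with 10.4 RPKM in RelA and 0.520 in RelB, followed by an exon region assigned to Ndufaf7, with 9.15 and 0.696. The 2 lower in RelA were assigned to Uqcrfs1, with 0.554 RPKM in RelA and 2.40 in RelB, and Uqcrc2, with 2.23 and 5.93.

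**Figure D4:**
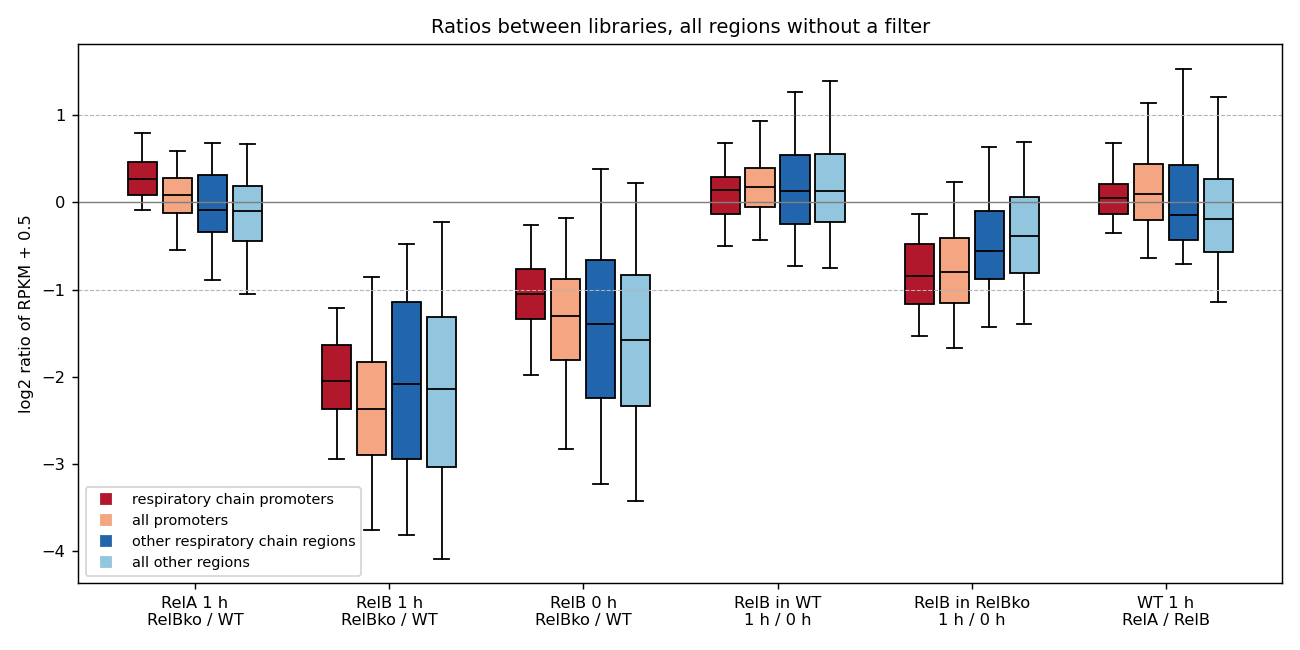
Log2 ratios of RPKM plus 0.5 for the 6 comparisons, over respiratory chain promoters, all promoters, other respiratory chain regions and all other regions, all without the enrichment filter; boxes span the quartiles, lines are medians, whiskers run from the 5th to the 95th percentile, and dashed lines mark 2-fold. Respiratory chain promoters have the median of 0.27 in RelA between genotypes, against 0.08 for all promoters, and medians of -2.05 and -1.05 in RelB at 1 h and 0 h, against -2.37 and -1.31.

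Some of the strongest signals assigned to respiratory chain genes lay away from their promoters, in stretches with other genes beside them. Other regions above the highest respiratory chain promoter numbered 1 in RelBko RelA and 2 in WT RelA, and 14 in WT RelB at 1 h and 7 at 0 h. Neighbours are given in RefSeq order. The region of highest mean ChIP signal, annotated to a 3′ UTR 61189 bp from the TSS of Atp5o (mm9 chr16:91870530-91870843), had 31.4 RPKM in RelBko RelA and 31.9 in WT RelA. RelB signal there was 3.76 RPKM in RelBko against 58.4 in WT at 1 h and 5.10 in RelBko against 105 in WT at 0 h. Its WT signal was lower at 1 h than at 0 h, with a read ratio of 0.555 and an interval of 0.50 to 0.617. A second strong region lay beside it in an exon, 61958 bp from the TSS, with 32.3 RPKM in RelBko RelA and 34.8 in WT RelA. The next gene to Atp5o is Itsn1, which encodes an endocytic scaffold protein. The promoter of Atp5o itself had 5.5 RPKM in RelBko RelA and 3.80 in WT RelA.

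Cox4i1 stands between Emc8 and Irf8, the latter the gene of a transcription factor needed for dendritic cell development. All 5 non-promoter regions of Cox4i1 together had a median of 36.0 RPKM in RelBko RelA and 45.6 in WT RelA. The strongest (mm9 chr8:123206583-123206950), 14546 bp from the TSS, had 54.9 RPKM in RelBko RelA and 47.0 in WT RelA. Its RelB signal was 3.48 RPKM in RelBko against 65.3 in WT at 1 h and 4.04 in RelBko against 36.0 in WT at 0 h. In contrast to the Atp5o region, it had more WT RelB signal at 1 h than at 0 h, with a read ratio of 1.82 and an interval of 1.61 to 2.05. The region at 33945 bp had 36.0 RPKM in RelBko RelA and 46.7 in WT RelA. One at 31441 bp passed 2-fold in WT RelB, with 50.3 RPKM at 1 h and 24.0 at 0 h.

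Cox6a2, the muscle isoform of subunit VIa, lies between Itgad and 9130023H24Rik, with Itgax beyond Itgad. Itgax encodes CD11c, the integrin chain used as a dendritic cell marker. Its single region (mm9 chr7:135353184-135353521), 3472 bp upstream, had 30.1 RPKM in RelBko RelA and 37.7 in WT RelA. RelB signal was 1.82 RPKM in RelBko against 34.7 in WT at 1 h and 4.40 in RelBko against 58.6 in WT at 0 h, and in WT the read ratio of 1 h to 0 h was 0.592, with an interval of 0.518 to 0.675. Uqcrfs1 lies between Agtr1a and Dusp22, with Irf4, another lymphoid and dendritic cell transcription factor gene, beyond Dusp22. Uqcrfs1 had 15 non-promoter regions with up to 34.6 RPKM in RelBko RelA and 34.6 in WT RelA. In WT RelB they reached 37.4 RPKM at 1 h and 38.7 at 0 h. Cox4i2, between Id1 and the survival gene Bcl2l1, had 7, with up to 28.9 RPKM in RelBko RelA and 30.5 in WT RelA. Sdhd lies between Tex12 and Timm8b, with the cytokine gene Il18 beyond Tex12. The strongest region of Sdhd had 32.9 RPKM in RelBko RelA and 27 in WT RelA. By contrast, the 6 non-promoter regions of Cox6c had at most 5.07 RPKM in RelBko RelA and 3.85 in WT RelA. Assignment to a gene here means the nearest TSS in the deposited annotation, and which gene a region acts on was not measured.

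**Figure D5:**
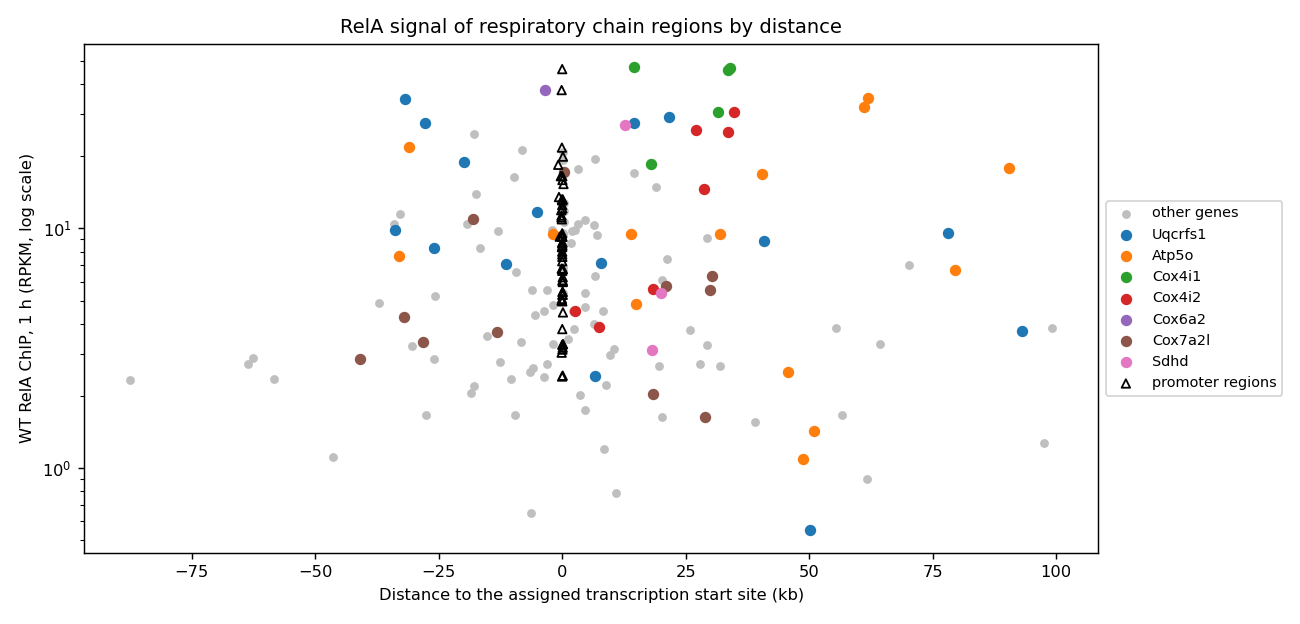
WT RelA signal at 1 h (RPKM, log scale) of respiratory chain regions by distance to the assigned TSS (kb); triangles are promoter regions, and coloured points are non-promoter regions of the 7 genes Uqcrfs1, Atp5o, Cox4i1, Cox4i2, Cox6a2, Cox7a2l and Sdhd. The regions of Cox4i1, Cox6a2, Atp5o and Uqcrfs1 reach 34.6 to 47.0 RPKM and the promoters of Ndufv3 and Ndufaf3 reach 37.7 and 46.1 RPKM; at 20 RPKM or more stand 3 promoters and 19 other regions.

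Promoters of genes that serve the chain without being matched by symbol had higher levels. Among 36 electron carrier and assembly genes, 22 had 24 promoter regions, with a median of 15.6 RPKM in RelBko RelA and 12.4 in WT RelA. These lie above the medians of all promoters, 13.0 RPKM in RelBko RelA and 11.9 in WT RelA, in WT RelA only narrowly. Several of the 24 regions belong to Cox20, with 36.1, 35.0 and 43.6 RPKM in RelBko RelA and 31.9, 33.5 and 39.7 in WT RelA. Counting Cox20 once would put the WT RelA median slightly below that of all promoters. The medians of the respiratory chain promoters, 9.61 and 8.36 RPKM, lie below those of all promoters in both libraries. In RelA between genotypes 0 of 24 were called higher or lower (all promoters 0.458% and 0.966%), with a median log2 ratio of 0.20. In RelB, 23 of 24 were lower in RelBko at 1 h (all promoters 97.8%) and 15 of 24 at 0 h (all promoters 74.3%), with 0 higher at either time. One stood apart in WT RelB: the region of Sdhaf1, an assembly factor of complex II, 769 bp upstream of its TSS. Its RelB signal was 1.39 RPKM in RelBko against 59.9 in WT at 1 h, and 3.89 against 95.2 at 0 h. Its RelA signal, 29.5 RPKM in RelBko and 34.8 in WT, was below the highest of the list, that of Cox20.

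Of 18 regulators of mitochondrial biogenesis, 13 had 16 promoter regions. The median of these regions was 14.3 RPKM in RelBko RelA (all promoters 13.0) and 11.7 in WT RelA (all promoters 11.9). The highest region was that of Gabpb1, which encodes the partner of GABPA, with 78.7 RPKM in RelBko RelA and 99.0 in WT RelA. In WT RelB it had 77.4 RPKM at 1 h and 112 at 0 h. This exceeded every respiratory chain promoter in the same libraries, the highest of which reached 46.3, 46.1, 28.4 and 29.2 RPKM. Tfam, the mitochondrial DNA packaging and transcription factor, had 11.5 RPKM in RelBko RelA and 11.6 in WT RelA. In RelA between genotypes 0 of 16 were called higher or lower (all promoters 0.458% and 0.966%). In RelB 15 of 16 were lower in RelBko at 1 h (all promoters 97.8%) and 11 of 14 at 0 h (all promoters 74.3%).

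Of 17 citric acid cycle genes, 9 had a promoter region, with a median of 13.0 RPKM in RelBko RelA and 9.96 in WT RelA. The median log2 ratio of RelA between genotypes was -0.06 there, with 0 of 9 called higher or lower (all promoters 0.458% and 0.966%). RelB was lower in RelBko at 9 of 9 at 1 h (all promoters 97.8%) and 4 of 9 at 0 h (all promoters 74.3%). RelA exceeded RelB in WT at least 2-fold at 2 of the 9 (all promoters 7.07%), Sucla2, with 26.5 RPKM in RelA and 8.54 in RelB, and Ogdh, with 18.6 and 8.0.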

How the data were processed

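ChIP-seq of RelA and RelB in RelBko and WT BMDCs was analysed from 7 libraries, 1 per group. The authors deposited RPKM values per region and library, per the file headers; another deposited file holds region coordinates only. HISAT2, HOMER and bedtools, and the build mm9, appear in the submitters' processing notes, without roles or versions. Per the labels' protocols, cells were fixed with DSG and PFA; the protocol text names a CpG oligonucleotide reagent beside LPS and an anti-RelA antibody for all samples, while the sample labels, followed here, give RelB or RelA. Deposited starts count from 0 and were raised by 1.

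From RPKM and region length, whole reads were recovered (100% of values within 0.01 read). They were used for intervals, exact (Clopper-Pearson) at 95% and covering counting error only, since duplicate reads are not independent molecules. Every value equals 1 read or more, so 1 read may have been added to each; an alternative takes it off. Ratios used log2 of RPKM plus 0.5, which understates changes of weak regions. A region was compared where either library of the pair was enriched, and called at 2-fold. No test was possible with 1 library per group, and no p is given.

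Genes named are, by rule, the 4 strongest promoters per complex, the 3 highest and 3 lowest ratios per comparison, members called where 5 or fewer were, and the 6 strongest other regions; further genes were chosen after their values were seen. Gene groups and lists were chosen with earlier results of these data known. Alternatives changed the pseudocount, filter, scaling, call threshold, promoter definition and member set. Python 3.11.15, pandas 2.3.3 and scipy 1.17.1 were used, and the code was tested on simulated data.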

Additional observations from a re-analysis of the deposited data

Results flagged for a closer look

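The median RelB log2 ratio of 1 h to 0 h at respiratory chain regions was below 0 in RelBko and slightly above 0 in WT. Without a filter, the median log2 ratio of 1 h to 0 h over the 58 promoters was -0.85 in RelBko and 0.14 in WT, against -0.80 in RelBko and 0.17 in WT over all promoters. Over the 149 other regions it was -0.56 in RelBko and 0.14 in WT. With the median ratio of compared regions set to 1, the median over compared respiratory chain promoters was -0.16 in RelBko and -0.00 in WT, where 0 promoters were called. The difference was not tested, since each group held 1 library. The share of reads in all regions moved with it, at 4.62% for 1 h and 7.41% for 0 h in RelBko, and 42.4% for 1 h and 38.4% for 0 h in WT; its part in the result was not tested.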

How the results depend on the processing

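With 1 library per group, no replicate could be left out. No paired analysis was possible because each group held 1 library and no result comes from a test. Of the alternative values of counts, medians and ratios, 132 kept within the limits set for them, 33 moved and 2 reversed; of values for single regions, 43 kept their call and 7 lost it, none reversing. Weak regions limit the counts: with few reads, a call depends on the pseudocount. The causes were not tested.

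RelA, RelBko against WT, had 6 regions called, and 12 with a pseudocount of 0.1 RPKM, 2 with 1 RPKM, 2 with enrichment from 4 RPKM and 42 at 1.5-fold. RelB, RelBko against WT at 1 h, had 162 called, and 47 with the median ratio of compared regions set to 1; the promoter median of -2.06 was then 0.40, a reversal, and it was -1.32 with regions enriched in no library set to 1, -2.28 with a pseudocount of 0.1 and -1.85 with 1. At 0 h the 119 called became 49 and 76 under the same scalings, and the median of -1.09 became 0.76, a reversal, and -0.56. WT RelB, 1 h against 0 h, had 18 called, 10 from 4 RPKM and 48 at 1.5-fold. RelBko RelB, 1 h against 0 h, had 31, and 18 with a pseudocount of 1, 52 without a filter, 15 from 4 RPKM and 6 with the median set to 1. Its median of -1.09 was -1.24 with a pseudocount of 0.1, -1.26 from 4 RPKM and -0.16 with the median set to 1. RelA against RelB had 16, 10 from 4 RPKM and 55 at 1.5-fold, and its median of 0.05 was 0.21 and 0.15 under the scalings.

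With 1 region per gene and class, the promoter to other ratio was 1.18 in RelBko RelA, 0.867 in WT RelA, 1.09 in WT RelB at 1 h, 1.61 in RelBko RelB and 0.995 in WT RelB at 0 h, and 1.10 in the input, which had 1.15 with a limit of 10 kb. Enrichment from 4 RPKM, chosen after seeing the data, left 25 of 58 regions in RelBko RelB at 0 h and 1 of 9 at 1 h.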
